A study of Mus musculus with 34 samples.

Results

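The epidermal growth factor (EGF) family was examined as 10 genes, chosen by name from the 23509 genes counted in each kidney. The list held 6 ligands (*Egf*, *Tgfa*, *Hbegf*, *Areg*, *Ereg* and *Btc*) and 4 receptors of the ErbB group (*Egfr*, *Erbb2*, *Erbb3* and *Erbb4*). All 10 passed the filter on low counts, which left 15644 genes for testing. Polyadenylated RNA of whole kidneys from 34 C57BL6 mice was sequenced on postnatal day 28. Wildtype mice without treatment (UNT, n = 12) were compared with *Pkd2*-KO mice given PBS (n = 11) and with *Pkd2*-KO mice given RGLS4326 (n = 11), a short modified oligonucleotide directed against the microRNA miR-17. Both knockout groups were injected subcutaneously on postnatal days 10, 11, 12 and 19 with PBS or with the drug at 20 mg per kg. In this model a Cre recombinase driven by *Pkhd1* regulatory sequence removes floxed *Pkd2* in renal tubules, mainly the collecting duct, so that other kidney cells keep the gene. The labels spell the genotype "Pdk2KO".

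EGF family ligands are made as membrane-bound precursors that proteases cut free, and they act on the cell that made them or on its neighbours. EGF, TGF-alpha and amphiregulin bind EGFR, while HB-EGF, epiregulin and betacellulin bind EGFR and ERBB4. ERBB2 binds no ligand and signals as a partner of the other receptors, and ERBB3 binds neuregulins but has a weak kinase. In the kidney, *Egf* is made chiefly by the thick ascending limb and the distal convoluted tubule, and EGF receptor signalling has long been studied in the growth of renal cysts.

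RGLS4326 is directed at the miR-17 family, whose members share the seed that pairs with target transcripts. The mature mouse sequences of the family's founder and 1 relative, as given by RefSeq on GRCm38.p6, are shown because they define the match searched for in the EGF family; the seed (bases 2 to 8) is in capitals.
mmu-miR-17-5p: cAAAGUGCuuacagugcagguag
mmu-miR-20a-5p: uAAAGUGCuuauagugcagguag
The annotated 3′UTRs of the 10 genes (GENCODE M21, GRCm38, the longest 3′UTR of a gene's coding transcripts with a stop codon) were searched on the transcript strand for GCACTTT and CACTTTA, which overlap in the longer match GCACTTTA. The 3′UTRs of *Tgfa*, *Ereg* and *Egfr* held at least 1 match and those of the other 7 genes held none. Each match and its neighbouring bases are shown with the match in capitals.
Tgfa: caccacgcccaGCACTTTttgattactag
Ereg, site 1: gagcataaacaGCACTTTcaggctacatt
Ereg, site 2: actctgccattGCACTTTgtaaatctgta
Egfr: tctctcctgatGCACTTTgggaagttgaa
The *Tgfa* match lies at chr6:86273601-86273607, 1646 bases into a 3′UTR of 3764 bases. The *Ereg* matches lie at chr5:91093239-91093245 and chr5:91093371-91093377, in a 3′UTR of 3501 bases. The *Egfr* match lies at chr11:16912039-16912045, near the start of a 3′UTR of 6303 bases. All 3 genes are on the plus strand. None of the 4 matches was followed by the A that makes the longer match. Among 14193 tested genes with an annotated 3′UTR, 21.2% held a match, the median 3′UTR being 1150 bases long. A match of letters is a description of the sequence and not a measured site.

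Per library, 17603122 to 54981992 reads fell in genes. The name of each count table carries a library number that restarts 2 times, and no label names a sequencing run. The 3 blocks of numbers are called runs here on that ground alone, and each held 3 or 4 libraries of every group. Transcripts of nephron segments, the usual marks of kidney, were present in every library: the summed level of 4 thick ascending limb transcripts stood at 2314 CPM or more, CPM being a gene's reads scaled to a common library size. Libraries PBS 9 and RGLS4326 11, both of run 3, stood apart: 405 genes were lower in both than in each of the other 20 *Pkd2*-KO libraries, and 212 were higher. *Egfr*, *Erbb3* and *Erbb4* were among the lower genes, which had a median longest transcript of 5522 bases, against 3296 bases for all tested genes. The tests of these receptors are therefore given with and without both libraries, a choice made after the data were seen. Both were the lowest *Pkd2*-KO libraries in each of these receptors, so smaller p-values without them partly follow from that choice. In PBS 9 alone, long transcripts were low as a class: the median log2 CPM of transcripts of at least 8000 bases minus that of transcripts of at most 2000 bases was 0.31, against 1.14 to 2.12 in the other 33 libraries (1.65 in RGLS4326 11). Whether RNA quality had a part in these receptor values was not tested.

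In normal kidney, EGF itself dominated the ligand transcripts. *Egf* (chromosome 3: 129677565 to 129755316, minus strand) had from 2294 to 4992 CPM in the 12 UNT kidneys, with a median of 2831. Levels of different genes were set side by side as CPM per kilobase of annotated exon. On that scale *Egf* stood at 269 ± 69.4 (SD, n = 12) in UNT kidneys, above every library's value of each other family member. *Erbb2* came next at 18.9 ± 2.59, followed by *Erbb3* at 11.4 ± 3.97 and *Egfr* at 6.24 ± 0.915, and the ranges of neighbours in this order overlapped. *Hbegf* was at 3.64 ± 0.681, *Btc* at 2.51 ± 0.460, *Tgfa* at 1.26 ± 0.116 and *Erbb4* at 0.148 ± 0.0763. The ranges of *Egfr* and *Hbegf*, of *Btc* and *Tgfa* and of *Tgfa* and *Erbb4* did not overlap, while those of *Hbegf* and *Btc* did. The separation of *Egfr* from *Hbegf* depends on the length used. Per kilobase of longest transcript they were at 6.93 ± 1.02 and 6.10 ± 1.14. *Areg* (0.0237 ± 0.0285) and *Ereg* (0.0174 ± 0.0161) were lowest and could not be separated from each other. *Egf* thus made up 97.2% ± 0.686 of the summed ligand level per kilobase in UNT kidneys. Its annotated exons sum to 11275 bases but its longest transcript has 4761, and with the longest transcripts as lengths its share was 98.2%.

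To ask how the family differs between cystic and normal kidney, the PBS group was set against the UNT group by the quasi-likelihood test of edgeR across all 15644 genes, with Benjamini-Hochberg adjusted p (called under 0.05). Of the 10 members, 9 were called, against 82.1% of all tested genes. *Egf* fell, as did 39% of all genes, and 8 members rose, against 43.1% of all genes. In 6 of the 10, all of them ligands, the groups did not overlap, which held for 42.5% of all genes. A count of called members this close to the background says little about the family, so the size and direction of each change are given below, and the plot of each library's CPM shows the values behind them.

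**Figure D1:**
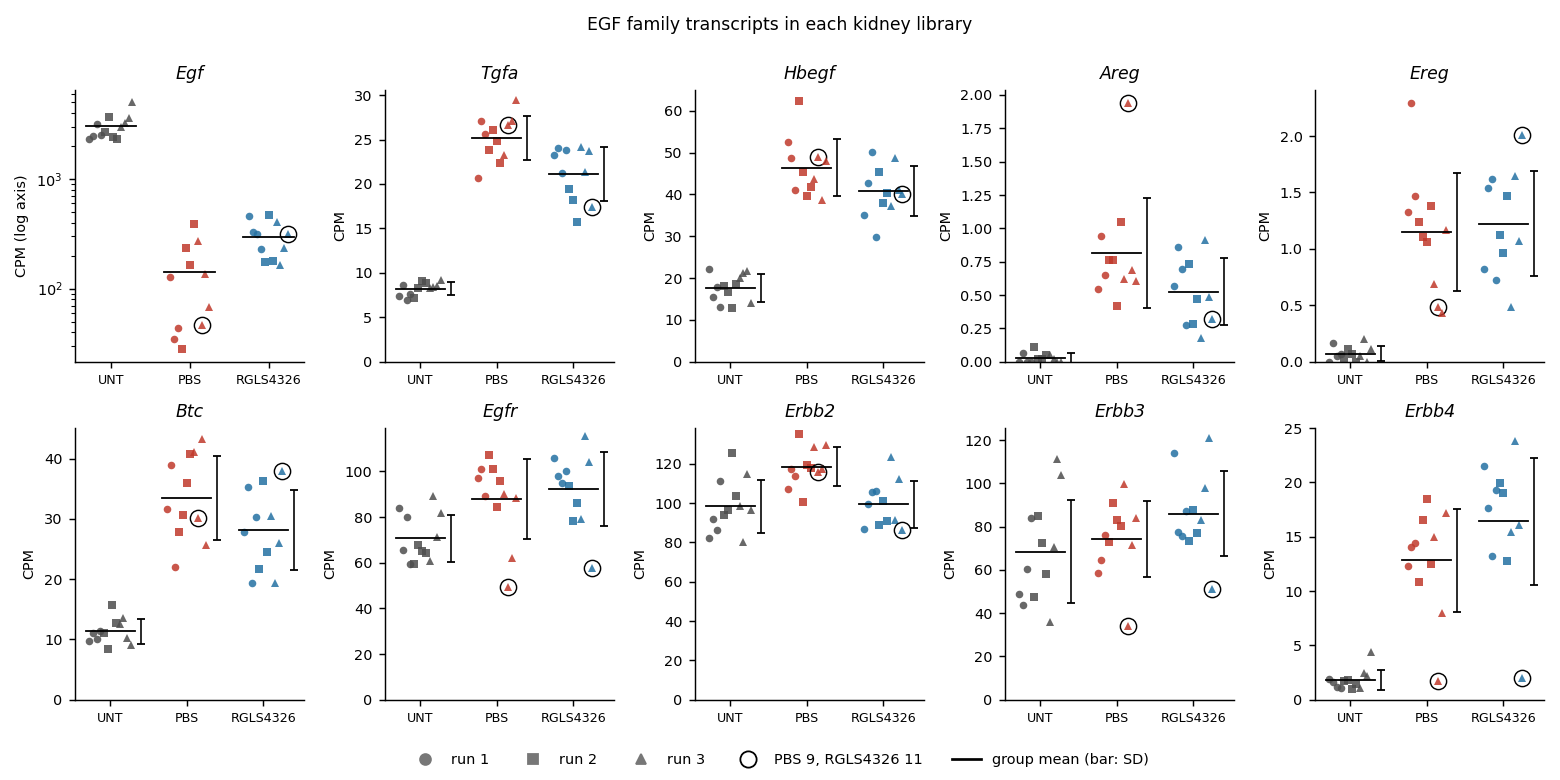
CPM of each EGF family gene in each kidney library, 1 point per mouse, by group. Shape gives the run, a block of library numbers that no label names as a sequencing run. Rings mark PBS 9 and RGLS4326 11. The horizontal line is the group mean and the vertical bar the SD. Egf has a log axis and no SD bar, and the rest have linear axes from 0. All UNT points of Egf lie at 2294 CPM or more and all Pkd2-KO points at 469.8 CPM or less, while the other 5 ligands are higher in every Pkd2-KO library than in any UNT library.

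*Egf* showed one of the deepest losses in the cystic kidney. It ranged from 27.8 to 390.2 CPM in the 11 PBS kidneys, with a median of 128, so that the highest PBS kidney stood far below the lowest UNT kidney. The change was −4.43 on the log2 scale (SE 0.37, adjusted p = 2.19e-13), 21.6-fold lower, and 1.25% of all tested genes changed more in size. *Egf* also varied more between PBS mice than any other member, with a coefficient of variation of 83.3%, against 25.8% in UNT mice. Annotated antisense genes overlap 500 and 607 bases of *Egf* exons, and how strand was used in counting was not given in the sources used here. Transcripts of the segments that make EGF fell as well. *Slc12a1*, the apical sodium-potassium-chloride transporter of the thick ascending limb, fell by 2.11 on the log2 scale (adjusted p = 2.74e-15), *Umod* (uromodulin), from the same segment, fell by 0.79 (adjusted p = 3.19e-08), and *Slc12a3*, the sodium-chloride transporter of the distal convoluted tubule, fell by 2.70 (adjusted p = 1.03e-19). Of the 4 thick ascending limb transcripts listed, 3 fell and 1 (*Cldn16*) rose, with a summed level of 6058 to 9690 CPM in UNT and 2314 to 4459 CPM in PBS kidneys and none at 0 in any library. All 4 distal convoluted tubule transcripts fell, from a summed 2018 to 2756 CPM to 301 to 515 CPM, and the deepest of these changes was that of *Pvalb* (parvalbumin), −7.70 on the log2 scale (adjusted p = 2.16e-16), with 0 reads in 6 of 11 PBS libraries and in 2 of 11 RGLS4326 libraries. Markers of cells that are not known as sources of EGF fell too. All 4 proximal tubule transcripts fell (median −2.74, summed 7670 to 10378 CPM in UNT and 571 to 2157 CPM in PBS kidneys), as did all 4 podocyte transcripts (median −1.25, summed 517 to 629 CPM and 204 to 315 CPM). The part of any of these in the loss of *Egf* was not tested, and in whole kidney fewer cells of a type and less RNA per cell cannot be told apart.

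The other ligands rose. *Tgfa*, which encodes TGF-alpha (chromosome 6: 86195223 to 86275719), went from 6.92 to 9.15 CPM in UNT (median 8.41) to 20.6 to 29.4 CPM in PBS kidneys (median 25.6), a log2 change of 1.62 (SE 0.07, adjusted p = 1.15e-20). All PBS kidneys stood above all UNT kidneys. *Hbegf*, which encodes heparin-binding EGF-like growth factor (chromosome 18: 36504927 to 36515805, minus strand), went from 12.8 to 22.3 CPM (median 18.01) to 38.6 to 62.5 CPM (median 45.4), a log2 change of 1.40 (SE 0.10, adjusted p = 1.11e-15). *Btc* (betacellulin; chromosome 5: 91357261 to 91402994) went from 8.46 to 15.8 CPM (median 11.1) to 22.1 to 43.3 CPM (median 31.6), a log2 change of 1.56 (SE 0.12, adjusted p = 7.57e-14). These 3 ligands rose by 2.63-fold to 3.07-fold, and each PBS kidney stood above every UNT kidney. Other marker lists rose in the same comparison, each with 4 of 4 genes higher. Injured tubule transcripts had a median of 6.09 (summed 5.06 to 10.2 CPM in UNT and 746 to 1812 CPM in PBS kidneys). Fibroblast transcripts had one of 2.03 (340.1 to 982 CPM and 2118 to 4516 CPM). Collecting duct principal cell transcripts had one of 1.07 (333 to 609 CPM and 390.01 to 1619 CPM). Cell division transcripts had one of 0.80 (32.8 to 172 CPM and 113 to 193 CPM). Intercalated cell transcripts went the other way, with 1 of 4 higher, 3 lower and a median of −1.44 (242 to 295 CPM and 99.5 to 161 CPM). The part of any of these in the rise of the ligands was not tested.

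*Areg* (amphiregulin; chromosome 5: 91139599 to 91148432) and *Ereg* (epiregulin; chromosome 5: 91074622 to 91093646) are close neighbours on chromosome 5 and were almost silent in normal kidney. *Areg* had 0 to 5 reads in the UNT libraries, 5 of which had none, and 13 to 64 reads in the PBS libraries, or 0.418 to 1.94 CPM (median 0.689). *Ereg* had 0 to 9 reads in the UNT libraries, 3 of which had none, and 16 to 63 reads in the PBS libraries, or 0.428 to 2.29 CPM (median 1.17). Every PBS library exceeded every UNT library for both genes. The fitted log2 changes were 4.50 (SE 0.38, adjusted p = 3.26e-13) and 3.91 (SE 0.36, adjusted p = 2.96e-12), and with so few reads in UNT they depend on the prior count and carry wide error. The highest *Areg* value came from PBS 9, which also had the highest summed T cell (17.0 CPM) and macrophage (781 CPM) transcripts of all libraries. Summed T cell transcripts were 0.483 to 1.47 CPM in UNT and 3.13 to 17.0 CPM in PBS kidneys, with all 4 listed genes higher. The 3 tested macrophage transcripts (*Adgre1* was not tested under that symbol) were also all higher, at 66.2 to 118 CPM and 304 to 781 CPM. Their part in the rise of *Areg* and *Ereg* was not tested.

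Among the receptors only *Erbb4* changed by more than 2-fold. *Erbb4* (chromosome 1: 68032186 to 69108059) had 1.01 to 4.43 CPM in UNT kidneys (median 1.66) and 1.76 to 18.4 CPM in PBS kidneys (median 14.05). Except for PBS 9, with the lowest value of 1.76 CPM, all PBS kidneys stood above all UNT kidneys. The log2 change was 2.84 (SE 0.30, adjusted p = 8.19e-11), or 7.17-fold, and 2.93 (adjusted p = 5.98e-16) without PBS 9 and RGLS4326 11. *Egfr* (chromosome 11: 16752203 to 16918158) went from a median of 66.5 CPM (59.5 to 89.1) to 90.2 CPM (49.5 to 107), a log2 change of 0.31 (SE 0.11, adjusted p = 0.00766), and 7 of the 11 PBS kidneys stood above the highest UNT kidney. Without both libraries the *Egfr* change was 0.34 (adjusted p = 0.000257). Within runs it was 0.37 in run 1 and 0.56 in run 2 but −0.064 in run 3 (adjusted p = 0.816). Run 3 holds the lowest PBS values, in PBS 9 (49.5 CPM) and PBS 10 (62.0 CPM). Its UNT kidneys had a mean of 75.8 CPM, against 72.2 in run 1 and 64.1 in run 2. The reason for the run 3 value was not tested.

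*Erbb2* (chromosome 11: 98412470 to 98437716) had 80.1 to 125 CPM in UNT kidneys (median 96.3) and 100.5 to 135 CPM in PBS kidneys (median 117), a log2 change of 0.27 (SE 0.07, adjusted p = 0.000651). The groups overlapped, with 3 of the 11 PBS kidneys above the highest UNT kidney. Within runs the *Erbb2* change was 0.24 (adjusted p = 0.0547), 0.14 (adjusted p = 0.255) and 0.33 (adjusted p = 0.0465). *Erbb3* (chromosome 10: 128567523 to 128589652) was the only member not called: its medians were 65.6 CPM in UNT (36.1 to 111) and 76.3 CPM in PBS kidneys (34.3 to 99.6), a log2 difference of 0.12 with a 95% interval of −0.22 to 0.45 (adjusted p = 0.517), and 0.16 (adjusted p = 0.3) without PBS 9 and RGLS4326 11. When the percentage of reads outside annotated genes was added to the fit, *Egfr* (0.18, adjusted p = 0.318) and *Erbb2* (0.09, adjusted p = 0.4) were no longer called. That share differed between the groups, at 9.84% to 11.3% of reads in UNT and 5.18% to 8.995% in PBS libraries.

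These changes altered the make-up of the ligand pool. *Egf* made up 31.7% ± 17.8 (n = 11) of the ligand level per kilobase in PBS kidneys, with a range of 9.45% to 60.8%, against at least 96.3% in every UNT kidney. With the longest transcripts as lengths its mean share was 41.9% in PBS and 68.4% in RGLS4326 kidneys. *Hbegf* made up 30.6% ± 10.4 and *Btc* 22.4% ± 4.64 of the PBS pool, against 1.38% ± 0.382 and 0.967% ± 0.312 in UNT. *Tgfa* reached 12.3% ± 3.87, while *Areg* (2.15% ± 1.40) and *Ereg* (0.898% ± 0.543) remained minor. The order of levels in PBS kidneys was *Erbb2*, *Egf*, *Erbb3*, *Hbegf*, *Egfr*, *Btc*, *Tgfa*, *Erbb4*, *Areg* and *Ereg*. This order depends on the length used: per kilobase of longest transcript *Egf* (29.4) stood above *Erbb2* (23.6), and *Hbegf* (16.1) above *Erbb3* (12.3). Per kilobase of exon, neighbours in the order overlapped in range except *Btc* with *Tgfa* and *Tgfa* with *Erbb4*. The receptor pool moved less: *Erbb2* made up 51.9% ± 6.20 in UNT and 52.3% ± 6.22 in PBS kidneys, and *Erbb4* 0.403% ± 0.174 and 2.32% ± 0.794. Without PBS 9 the PBS shares were 50.7% ± 3.29 for *Erbb2* and 2.503% ± 0.519 for *Erbb4* (n = 10), and the PBS levels per kilobase were 8.09 ± 1.11 for *Egfr*, 12.98 ± 2.02 for *Erbb3* and 1.13 ± 0.254 for *Erbb4*. These shares are of transcripts and not of protein.

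**Figure D2:**
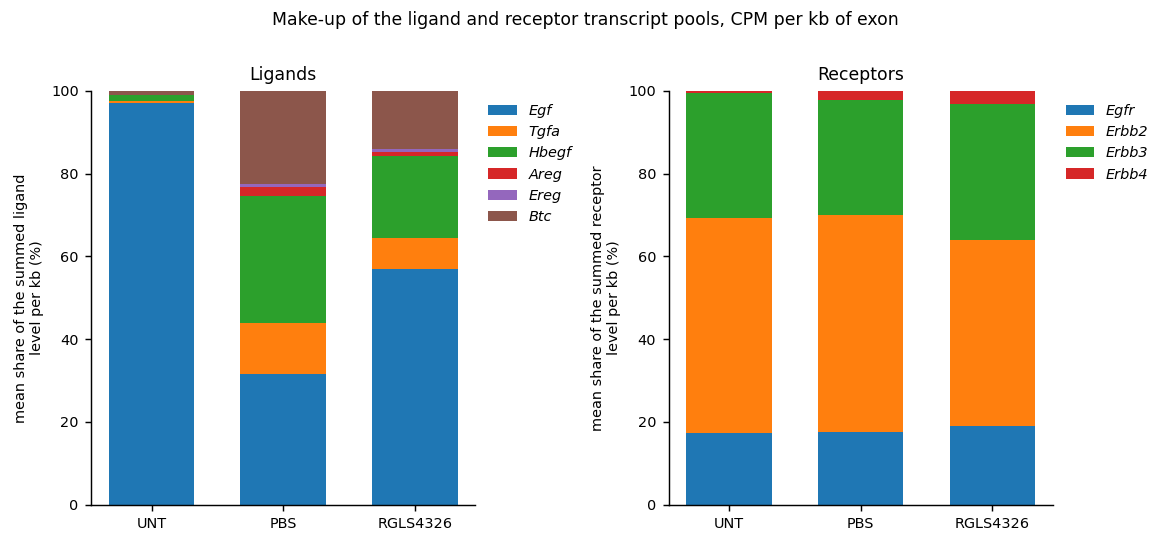
Mean share of each gene in the summed level, in CPM per kilobase of exon, of the 6 ligands (left) and the 4 receptors (right) in the UNT (n = 12), PBS (n = 11) and RGLS4326 (n = 11) groups; bars start at 0 and sum to 100%. Egf fills 97.2% of the ligand bar in UNT, 31.7% in PBS and 56.9% in RGLS4326 kidneys, while Erbb2 is the largest part of all 3 receptor bars.

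To ask whether the anti-miR-17 oligonucleotide altered the family in cystic kidney, RGLS4326-treated *Pkd2*-KO kidneys were compared with PBS-treated ones. *Egf* rose, and *Tgfa* and *Erbb2* fell, so that 3 of the 10 members were called, against 33.8% of all tested genes. The share of all genes called higher was 15.3% and called lower 18.5%. In 0 of the 10 members were the groups fully apart, a separation seen in 10 genes or 0.0639% of all tested. Of the called members, *Egf* was 2.12-fold higher and *Tgfa* and *Erbb2* were each 1.19-fold lower.

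*Egf* in the 11 RGLS4326 kidneys ranged from 165 to 469.8 CPM with a median of 314, against 27.8 to 390.2 CPM with a median of 128 in PBS kidneys. Of the PBS kidneys, 8 of 11 stood below the lowest treated kidney, and 3 of 11 treated kidneys stood above the highest PBS kidney. The log2 change was 1.09 (SE 0.33, 95% interval 0.42 to 1.75, adjusted p = 0.0135), or 2.12-fold, and 0.773% of all genes changed more. The spread between mice was narrower with treatment, with a coefficient of variation of 37.2% against 83.3%, a difference that was not tested. Within runs the log2 change was 2.29 in run 1 (adjusted p = 0.0426), 0.44 in run 2 (adjusted p = 0.629) and 1.102 in run 3 (adjusted p = 0.262), in fits of 3 or 4 mice a group, and with run as a covariate it was 1.20 (adjusted p = 0.00846).

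Markers of several cell types moved in the same comparison as *Egf*. *Slc12a1* rose by 0.56 (adjusted p = 0.00643) and *Slc12a3* by 0.62 (adjusted p = 0.00193) on the log2 scale, and *Umod* by 0.31 (adjusted p = 0.0294). Of the 4 thick ascending limb transcripts, 3 rose and *Cldn16* fell, with a summed level of 3449 to 5071 CPM in treated kidneys. Of the 4 distal convoluted tubule transcripts, 2 rose and 2 were not called, with a summed level of 419 to 783 CPM. Of the 4 proximal tubule transcripts 3 rose (median 0.62, summed 1406 to 2460 CPM in treated kidneys), and all 4 podocyte transcripts rose (median 0.31, summed 275 to 346 CPM). Of the 4 endothelial transcripts 3 rose and 1 was not called (median 0.21, summed 359 to 453 CPM). Of the 4 intercalated cell transcripts *Foxi1* fell (−0.63, adjusted p = 0.00289) and 3 were not called (summed 80.4 to 156 CPM). The part of any of these in the rise of *Egf* was not tested.

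*Tgfa*, whose 3′UTR holds 1 of the seed matches shown above, went from 20.6 to 29.4 CPM in PBS (median 25.6) to 15.7 to 24.2 CPM in RGLS4326 kidneys (median 21.4), a log2 change of −0.25 (SE 0.07, adjusted p = 0.0113). Of the PBS kidneys, 7 of 11 stood above the highest treated kidney. Within runs the change was −0.07, −0.43 and −0.29, and it passed the threshold in run 2 alone (adjusted p = 0.0155). *Erbb2* went from 100.5 to 135 CPM (median 117) to 86.5 to 123 CPM (median 99.6), a log2 change of −0.25 (SE 0.07, adjusted p = 0.00936). Of the treated kidneys, 6 of 11 stood below the lowest PBS kidney. Its within-run changes were −0.17, −0.32 and −0.25, with the lowest adjusted p of 0.0599 in run 2. Markers of other cells fell in the same comparison. Of the 4 collecting duct principal cell transcripts *Aqp2* (−0.78, adjusted p = 0.0413) and *Avpr2* (−0.62, adjusted p = 0.012) fell and 2 were not called. Their summed level was 235 to 1377 CPM in treated kidneys. Of the 4 injured tubule transcripts *Lcn2* fell (−0.80, adjusted p = 0.005) and 3 were not called, with a summed level of 391 to 1370.3 CPM. Macrophage and T cell transcripts are given with *Areg* below. The part of any of these in the falls of *Tgfa* and *Erbb2* was not tested. No member's change differed between runs at an adjusted p under 0.05 in either comparison, and neither did any tested gene (0% of genes). At an unadjusted p under 0.05, 2858 genes differed between runs in PBS against UNT and 1126 in RGLS4326 against PBS by edgeR, the only tool used for this test, with *Egfr* in the first comparison (p = 0.0276) as the only member.

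Each of the 3 calls was lost when a measure of library make-up entered the fit. Adding the percentage of reads outside genes, the log2 change was 0.93 for *Egf* (adjusted p = 0.137), −0.15 for *Tgfa* (adjusted p = 0.237) and −0.17 for *Erbb2* (adjusted p = 0.207), and 89 genes were called in place of 5280. With the balance of long and short transcripts as a covariate, chosen after the data were seen, these changes were 0.79 (adjusted p = 0.229), −0.21 (adjusted p = 0.192) and −0.20 (adjusted p = 0.191). The percentage of reads outside genes was 4.94% to 12.0% in RGLS4326 libraries, against 5.18% to 8.995% in PBS. Without PBS 9 and RGLS4326 11 all 3 calls held (adjusted p of 0.0378, 0.0379 and 0.0284).

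**Figure D3:**
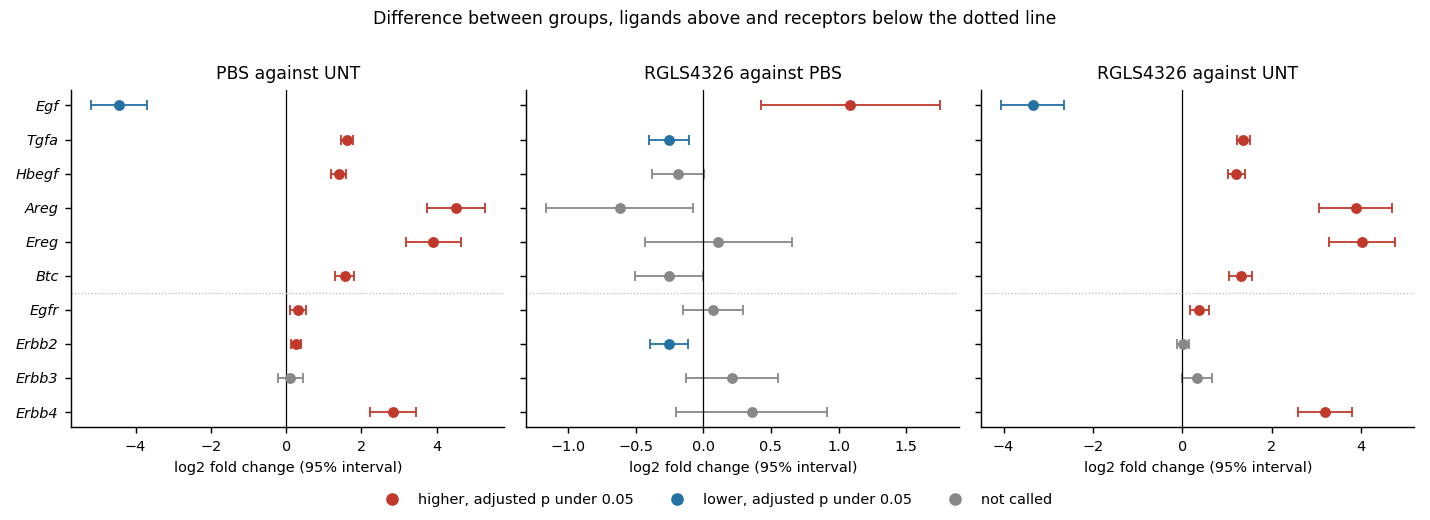
Log2 fold change of each member in the 3 comparisons, with 95% intervals from the edgeR fit over 34 libraries (red, higher; blue, lower; grey, adjusted p of 0.05 or more). The axes differ in range: changes from UNT reach 4.50 in size, and all RGLS4326 against PBS changes except that of Egf (1.09) lie between −0.62 and 0.36.

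The other 7 members did not pass the test between treated and PBS kidneys. *Areg* was at 0.174 to 0.915 CPM (median 0.483) in RGLS4326 kidneys, a log2 difference of −0.62 with a 95% interval of −1.16 to −0.08 (adjusted p = 0.0692). This difference was −0.40 without PBS 9 (adjusted p = 0.217) and −0.35 without both libraries. All 4 T cell transcripts were lower in treated kidneys (summed 2.41 to 5.24 CPM), as were 2 of the 3 tested macrophage transcripts (summed 275 to 532 CPM). *Ereg*, the member with 2 seed matches, was at 0.488 to 2.01 CPM (median 1.13), and its difference of 0.11 (interval −0.43 to 0.65, adjusted p = 0.763) was well within the spread between mice. *Egfr*, with 1 match, was at 57.6 to 116 CPM (median 94.9), a difference of 0.07 (interval −0.15 to 0.29, adjusted p = 0.628), or 0.068 (adjusted p = 0.568) without PBS 9 and RGLS4326 11.

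*Hbegf* (29.8 to 50.1 CPM, median 40.3) and *Btc* (19.3 to 38.0 CPM, median 27.8) were lower in treated kidneys by 0.19 (adjusted p = 0.123) and 0.25 (adjusted p = 0.107) on the log2 scale, with an interval of −0.38 to 0.01 for *Hbegf* and one from −0.51 to just under 0 for *Btc*. *Erbb3* (51.0 to 121 CPM, median 83.3) differed by 0.22 (interval −0.12 to 0.56, adjusted p = 0.314), and by 0.20 (adjusted p = 0.325) without both libraries. *Erbb4* (2.01 to 23.9 CPM, median 17.6) differed by 0.36 (interval −0.20 to 0.92, adjusted p = 0.311), and by 0.37 (adjusted p = 0.128) without PBS 9 and RGLS4326 11. These intervals leave room for changes of either direction in *Ereg*, *Egfr*, *Erbb3* and *Erbb4*.

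Treated kidneys were also set against UNT kidneys, to ask which members still differed from normal. Of the 10, 8 were called, against 77.7% of all tested genes. *Egf* was lower (36.9% of all genes were) and 7 members were higher (40.8% of all genes were). The groups did not overlap in 6 members, the 6 ligands, against 36.7% of all genes. *Egf* was 10.2-fold lower than in UNT (log2 −3.35, SE 0.35, adjusted p = 9.17e-11), and it made up 56.9% ± 8.77 of the ligand level per kilobase. *Tgfa* was 2.58-fold higher (adjusted p = 1.89e-18), *Hbegf* 2.31-fold (adjusted p = 7.21e-14), *Btc* 2.47-fold (adjusted p = 9.43e-12) and *Erbb4* 9.18-fold (adjusted p = 7.01e-12). *Egfr* was higher by 0.38 on the log2 scale (adjusted p = 0.00153), but by 0.23 and not called in run 3 alone (adjusted p = 0.397). Without PBS 9 and RGLS4326 11 the log2 change was 0.41 for *Egfr* (adjusted p = 2.77e-05) and 3.30 for *Erbb4* (adjusted p = 4.78e-17). *Erbb2* differed by 0.01 with an interval of −0.13 to 0.15 (adjusted p = 0.861), a value whose sign depended on the scaling. *Erbb3* differed by 0.33 (adjusted p = 0.065), and by 0.36 (adjusted p = 0.0227) without PBS 9 and RGLS4326 11. Both knockout comparisons with UNT share the same 12 UNT mice, and the PBS mice stand in both of the comparisons before this one, so the changes are not independent of each other.

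Within groups, *Egf* varied from mouse to mouse together with other tubule transcripts. Deviations of log2(CPM + 1) from the group mean were correlated over the 34 mice, with two-sided permutation tests (100000 permutations of mice within groups) and adjustment over 13 relations. *Egf* rose and fell with *Slc12a1* (Pearson's r = 0.82, Spearman's rho = 0.84, adjusted permutation p = 0.00013 for both, from the smallest p of 1e-05 that the permutations can give). This r was 0.80 without the 2 mice farthest from the median *Egf*, and 0.87 when deviations were taken from the mean of the same group and run. Within groups it was 0.85 in UNT (n = 12), 0.88 in PBS (n = 11) and 0.68 in RGLS4326 (n = 11) mice. *Egf* was also related to *Umod* (r = 0.68, rho = 0.72, adjusted permutation p of 0.000997 and 0.00039) and to *Slc12a3* (r = 0.64, rho = 0.56, adjusted permutation p of 0.00322 and 0.0119). Without the same 2 mice these r were 0.70 and 0.62, and with deviations by group and run 0.67 and 0.68. Within groups the r with *Umod* was 0.92 in UNT and 0.82 in PBS but 0.14 in RGLS4326 mice, and that with *Slc12a3* was 0.48, 0.84 and 0.19. These differences between groups were not tested.

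*Egf* was lower where *Lcn2*, which encodes the tubular injury marker lipocalin 2, was higher (r = −0.67, rho = −0.67, adjusted permutation p of 0.000997 and 0.00139). The relation was r = −0.65 without the 2 mice and −0.78 by group and run. It was −0.91 in PBS mice, −0.38 in RGLS4326 mice and −0.28 in UNT mice, and these differences between groups were not tested. No r between *Egf* and another member of the family passed after adjustment. The largest were with *Btc* (r = 0.39, adjusted permutation p = 0.0746; r = −0.52 in UNT, 0.56 in PBS and 0.61 in RGLS4326 mice), *Erbb3* (r = 0.35, adjusted permutation p = 0.0746) and *Hbegf* (r = −0.32, adjusted permutation p = 0.0777), of which *Erbb3* passed by rank (rho = 0.39, adjusted permutation p = 0.0486). The mice share runs and library make-up, so these relations describe these libraries.

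**Figure D4:**
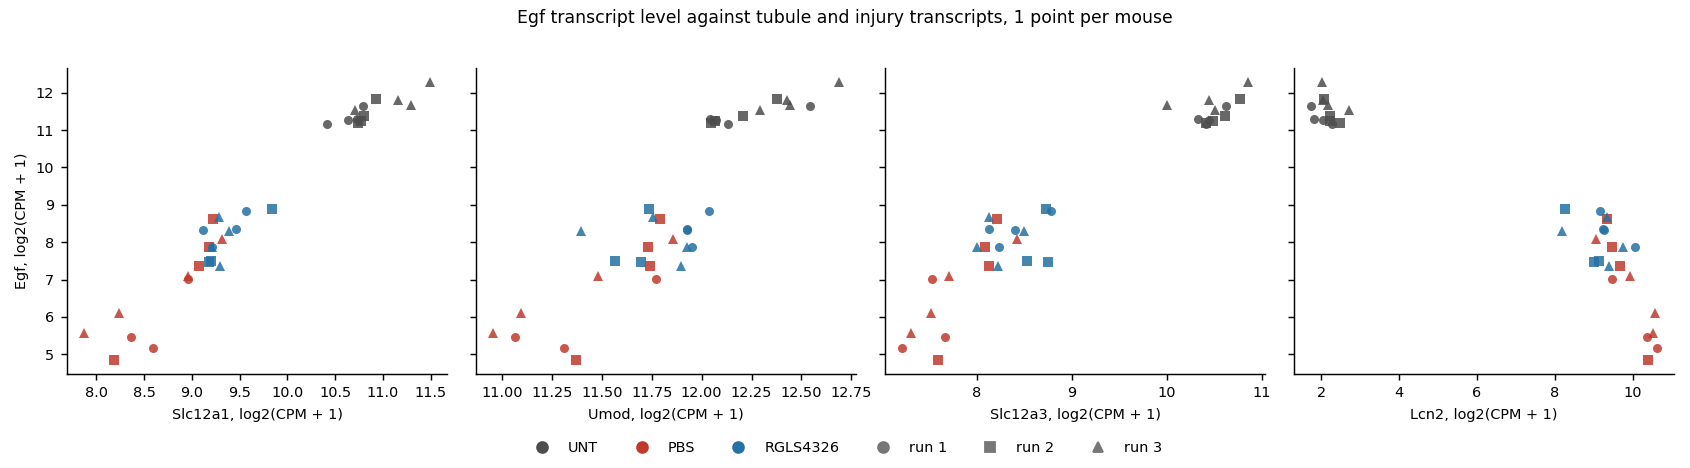
Egf against Slc12a1, Umod, Slc12a3 and Lcn2 as log2(CPM + 1), 1 point per mouse (grey, UNT; red, PBS; blue, RGLS4326; shape gives the run). Within the PBS group Egf is high where Slc12a1 is high (r = 0.88) and where Lcn2 is low (r = −0.91).

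For each member the tested genes outside the family with the most similar deviations over the 34 mice were listed, as a description without a test. They were *Mgam* (r = 0.92), *Prlr* and *F13b* for *Egf*. For *Tgfa* the highest was *Nipal3* (r = 0.75), for *Hbegf* it was *Ncs1* (r = 0.68), for *Areg* it was *Itih3* (r = 0.70) and for *Btc* it was *Bckdhb* (r = 0.76). *Ereg* was most like *Tnfsf8* (r = 0.75), *Osmr* and *Thbs1*. *Erbb2* was most like *Apbb1* (r = 0.83). *Erbb4* was most like *Lnpep* (r = 0.94), *Nbeal1* and *Ptpn4*, all with longest transcripts of at least 10874 bases, and *Egfr* most like *Ipo8* (r = 0.87) and *Met*. *Erbb3* was most like *Asxl1* (r = 0.91). Among the members themselves the highest r over all 34 mice was between *Egfr* and *Erbb4* (0.79), followed by *Erbb3* and *Erbb4* (0.66). Without PBS 9 and RGLS4326 11 these were 0.52 and 0.45 over 32 mice, and the order changed: the highest r was then between *Areg* and *Ereg* (0.60, against 0.11 over 34 mice), and that of *Ereg* with *Egfr* was 0.48. The r of *Erbb4* with *Lnpep* was then 0.71, that of *Egfr* with *Ipo8* 0.81 and that of *Erbb3* with *Asxl1* 0.896. PBS 9 and RGLS4326 11 were the lowest *Pkd2*-KO libraries in all 3 of these receptors.

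The pathway around the receptors was followed in 5 lists. They were chosen with earlier results of these data known, so their counts are descriptions and not tests of the pathway. Of 5 further ErbB ligands, *Nrg3* and *Epgn* had too few reads to be tested. *Nrg1* (neuregulin 1, a ligand of ERBB3 and ERBB4) was at 2.99 ± 0.556 CPM in UNT, 15.0 ± 3.81 in PBS and 15.4 ± 4.12 in RGLS4326 kidneys, and rose in PBS against UNT by 2.32 on the log2 scale (adjusted p = 9.31e-17). *Nrg2* rose by 0.91 (adjusted p = 2.58e-05) and *Nrg4* fell by 0.91 (adjusted p = 3.04e-05). None of the 3 was called between RGLS4326 and PBS, where their median was 0.04.

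Of 7 genes for ligand shedding, 6 rose in PBS against UNT, against 43.1% of all genes, with a median of 0.79 against 0.04 for all genes. *Rhbdf2*, which encodes the iRhom2 partner of the protease ADAM17, rose by 1.29 (adjusted p = 1.66e-18), *Rhbdl2* by 1.23 (adjusted p = 1.16e-13) and *Adam17* by 0.55 (adjusted p = 7.06e-13). Between treated and PBS kidneys *Adam9* (0.20, adjusted p = 0.0189) and *Adam12* (0.48, adjusted p = 0.0304) rose and *Rhbdf1* fell by 0.17 (adjusted p = 0.0316), while 4 were not called, where 15.3% of all genes rose and 18.5% fell. Of 16 inhibitors of the receptors or the pathway, 7 rose and 2 fell in PBS against UNT, where 43.1% of all genes rose, 39% fell and 82.1% were called, so that the share that rose was near that of all genes. The ERK phosphatase gene *Dusp5* rose by 2.56 (adjusted p = 9.21e-20) and the feedback inhibitor genes *Spry1* by 1.27 (adjusted p = 3.89e-18) and *Spry2* by 0.53 (adjusted p = 4.24e-10). The 2 that fell, named here after their values were seen, were *Errfi1*, which encodes an inhibitor of the EGF receptor kinase (−0.96, adjusted p = 3.37e-06), and *Socs5* (−0.36, adjusted p = 1.86e-05). Between treated and PBS kidneys *Spred1* (0.32, adjusted p = 0.0266) and *Lrig2* (0.23, adjusted p = 0.034) rose, *Dusp5* fell by 0.32 (adjusted p = 0.0331) and 13 were not called, where 33.8% of all genes were called, 15.3% higher and 18.5% lower.

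Of 22 tested adaptors and kinases, 11 rose, 6 fell and 5 were not called in PBS against UNT, with a median of 0.18, where 43.1% of all genes rose and 39% fell. *Stat3* rose by 1.57 (adjusted p = 1.06e-21), *Akt1* by 1.19 (adjusted p = 4.12e-18) and the adaptor gene *Shc1* by 0.78 (adjusted p = 4.32e-18). Between treated and PBS kidneys 6 rose, 6 fell and 10 were not called, where 15.3% of all genes rose and 18.5% fell. *Mapk3*, which encodes the kinase ERK1, fell by 0.40 (adjusted p = 0.00262) and *Akt1* by 0.29 (adjusted p = 0.00418), while *Braf* rose by 0.42 (adjusted p = 0.00744).

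Of 9 genes whose transcription responds to ERK, 8 rose in PBS against UNT, against 43.1% of all genes, with a median of 1.90. The immediate early genes *Fos* (1.81 ± 0.552 CPM in UNT and 27.1 ± 8.12 in PBS kidneys) and *Egr1* (10.8 ± 4.22 and 93.2 ± 24.3 CPM) rose by 3.89 and 3.11 on the log2 scale, and *Myc* by 2.30. The gene not called, *Ccnd1* (adjusted p = 0.0994), is named after its value was seen. Between treated and PBS kidneys, 4 of the 9 fell, none rose and 5 were not called, with a median of −0.26, while 18.5% of all genes fell and 15.3% rose. *Phlda1* fell by 0.51 (adjusted p = 0.0024), *Etv4* by 0.51 (adjusted p = 0.0211), *Fosl1* by 0.65 (adjusted p = 0.0299) and *Myc* by 0.26 (adjusted p = 0.0312). In the comparison of treated with UNT kidneys 7 of the 9 were higher, against 40.8% of all genes. These genes answer to many signals besides the ErbB receptors.

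The treatment calls in the 5 lists had the same limit as those of the members. Of the 57 tested genes, 22 were called between treated and PBS kidneys by edgeR, 10 of these without PBS 9 and RGLS4326 11 (*Phlda1*, *Akt1*, *Mapk3*, *Braf*, *Adam9*, *Rhbdf1* and *Dusp5* among the genes named), and 0 with either the percentage of reads outside genes or the balance of long and short transcripts in the fit (11 at an unadjusted p under 0.05 in each; no other tool was run there). The lowest adjusted p of the 4 ERK responsive genes in those fits was 0.0756 (*Phlda1*). In PBS against UNT, 43 of the 57 were called, and 43 and 32 of these with the long-transcript balance and with the reads outside genes. In the latter fit 6 of the 9 ERK responsive genes were higher and 1 lower.

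**Figure D5:**
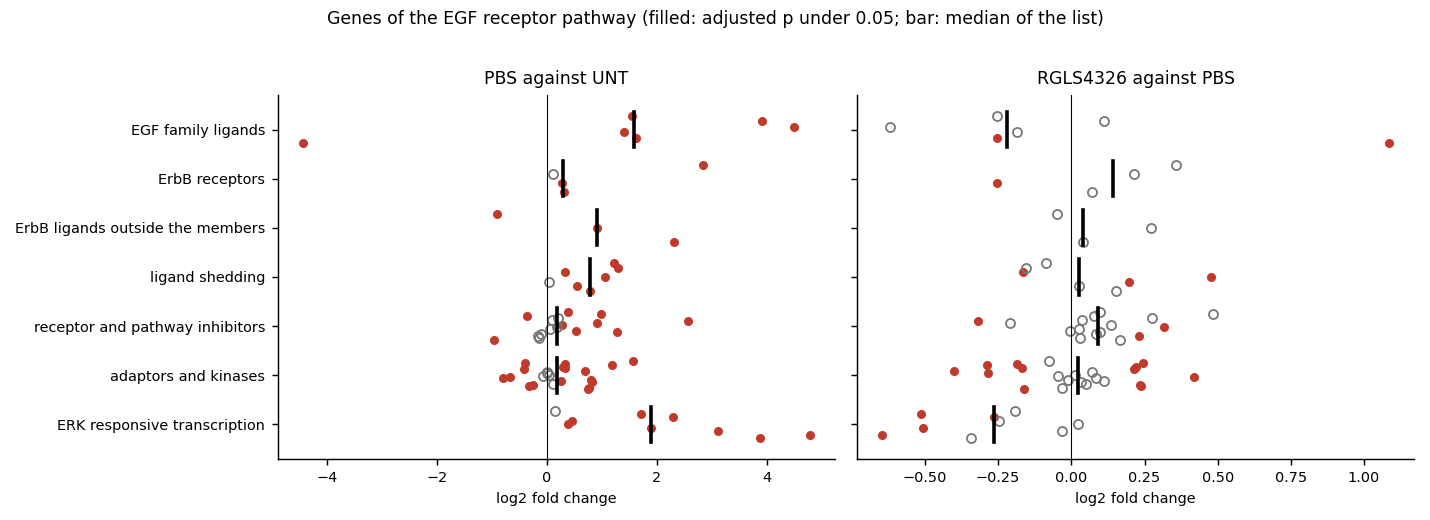
Log2 fold change of each tested gene of the EGF family and of 5 pathway lists in PBS against UNT (left) and RGLS4326 against PBS (right); filled points have an adjusted p under 0.05, open points do not, and the bar is the median of a list. The axes differ in range; the ERK responsive genes have a median of 1.90 on the left and −0.26 on the right.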

How the data were processed

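Kidney RNA was purified with the Qiagen RNeasy kit, and libraries of polyadenylated RNA (TruSeq stranded mRNA) were sequenced in pairs of reads by the authors. The deposited tables hold raw counts of read pairs per gene; per the authors' methods and processing notes, reads were trimmed (Trim Galore, FastQC 0.11.2), aligned with STAR to GRCm38 (mm10) and counted by HTSeq 0.6.1 where unique, with SAMtools 1.1 and Picard 1.119 also named. The annotation and strand setting used in counting were not given in the sources used here. HTSeq's lines for reads in no gene were kept out of library sizes and tests, and amounted to 4.94% to 12.0% of reads for those that hit no feature.

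The 10 members and all lists were chosen with earlier results of these data known. From the deposited counts, all 34 libraries were fitted together in edgeR 4.0.16 (R 4.3.3; filterByExpr, TMM scaling, quasi-likelihood F test, Benjamini-Hochberg adjustment over 15644 genes, threshold 0.05). CPM used TMM library sizes. Lengths came from GENCODE M21. Permutation tests used scipy 1.17.1 and numpy 2.4.6 on log2(CPM + 1), and the test script was tested on simulated data. Alternatives were DESeq2 1.42.0, RLE scaling, no filter, 2-group fits, run, sex-linked and library covariates, single runs, a replicate block and left-out libraries. Genes were named by rule: all members, and from each list the 3 genes of smallest p in either *Pkd2*-KO comparison, with marker genes beside a member they move with; others are named as chosen after their values were seen. No 2 libraries were identical. The tests treated each mouse as independent. Labels do not state litters, so whether that holds could not be checked. Count depth, 17603122 to 54981992 reads in genes, limits *Areg* and *Ereg* most.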

Additional observations from a re-analysis of the deposited data

How the results depend on the processing

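In every alternative the 6 ligands and *Erbb4* kept their calls in PBS against UNT. The number of genes called between RGLS4326 and PBS (5280) was 54 in run 1 alone, 4065 in run 2 alone, 0 in run 3 alone by edgeR (2826 at an unadjusted p under 0.05; no other tool was run there), 89 with the reads outside genes as a covariate, 3167 to 4509 without PBS 9, RGLS4326 11 or both, 3167 being without both, and 59 with the long-transcript balance. The 3 members called became 1 in run 1, 1 in run 2, and 0 in run 3, with the reads outside genes as a covariate or with the long-transcript balance. The cause was not tested.

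Values that turned direction belonged to members not called, except *Egfr* in PBS against UNT (−0.064 in run 3). *Erbb3* turned there to −0.15. Between RGLS4326 and PBS, *Ereg* turned to −0.49 in run 1, −0.044 with the reads outside genes as a covariate, from −0.051 to 0.048 without PBS 9, RGLS4326 11 or both and −0.26 with the long-transcript balance. With that balance *Egfr* was at −0.13, *Erbb3* at −0.033 and *Erbb4* at −0.20, and in run 2 *Egfr* was at −0.16 and *Erbb3* at −0.027. Against UNT, *Erbb2* in RGLS4326 kidneys was at −0.022 under DESeq2 and RLE scaling, −0.017 with no filter, −0.024 in a 2-group fit, −0.18 in run 2, −0.077 with the reads outside genes as a covariate and from −0.0070 to 0.033 without PBS 9, RGLS4326 11 or both. The r of *Egf* with *Egfr* was −0.016 by group and run. Per kilobase of longest transcript, *Egf* was at 637, 29.4 and 62.5 and *Hbegf* at 6.10, 16.1 and 14.1 CPM in UNT, PBS and RGLS4326 kidneys.

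Replicate numbers do not pair these mice: same-numbered mice correlated from −0.42 to 0.45. A replicate block gave 12781, 5098 and 12162 called genes in PBS against UNT, RGLS4326 against PBS and RGLS4326 against UNT, with 4 members called in the second (*Areg* added, −0.63, adjusted p = 0.0298) and *Erbb3* called in the third (0.46, adjusted p = 0.0154). No other member's call changed with the block.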
